A study of Mus musculus with 44 samples.

Results

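The livers of 11 wild-type mice were examined for how much each gene's transcript level differed from mouse to mouse. They were chosen by their labels, as every liver library of WT genotype on the high-fat diet, and make up 11 of the 44 libraries of the study. The mice were male C57BL/6N littermate controls of a line carrying a deletion of the lactate transporter gene Slc16a13, and carried no engineered allele themselves. Each was 20 weeks old and had eaten a high-fat diet (HFD) for 15 weeks, and the study's methods describe an overnight fast before tissue was taken. The study sequenced messenger RNA of liver and skeletal muscle from knockout and WT mice. Here genotype, sex, tissue, age and diet were the same for all 11, so no groups were compared, and each mouse is named by its animal number. Slc16a13 itself had between 99 and 302 counts per library, with a median of 149.

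Liver is a tissue in which many transcript levels move on a scale of hours or days. Hepatocytes make glucose during a fast under the control of glucocorticoids, glucagon and low insulin, they make cholesterol when the sterol content of their membranes falls, and they carry a circadian clock of their own. Pulses of growth hormone, which differ in pattern between male and female mice, set a male or female programme of liver transcripts through the factor STAT5. Prolonged feeding of fat adds lipid storage, inflammation and matrix production by stellate cells.

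The libraries held from 20150712 counts in mouse 536 to 33733103 in mouse 624, and their levels over all genes correlated with a mean Spearman rho of 0.986 to 0.990 to the other libraries. No library repeated another. Hepatocyte markers made up 88536 to 123140 CPM in each library (CPM is a gene's counts scaled to a common, TMM-normalised library total), and none of the 9 such markers tested lay above the trend defined below. The question put to the data was which genes differed between animals of one kind, and which differed together. A gene was called variable beyond counting noise where its counts spread more widely than reads drawn at random would, by goodness of fit to a Poisson model in edgeR. It was said to lie above the trend where its counts also spread more than the dispersion trend of all genes gives at its level. This was judged by goodness of fit in edgeR to a negative binomial model at that trend. Both calls used a Benjamini-Hochberg adjusted p under 0.05. The size of the variation is the biological coefficient of variation (BCV). It is the spread between libraries that remains after counting noise, in percent of the mean level. Each mouse gave a single liver library, so differences in dissection or library preparation cannot be told apart from those between mice.

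Most genes differed between the mice by more than counting noise, but by little. Of 12048 genes tested, 9799, or 81.3%, varied beyond counting noise. The median BCV was 9.20% (quartiles 5.81 and 15.1%), and the highest mouse exceeded the lowest by a median of 1.44 times. The trend ran from 13.6% to 21% and was highest for weakly expressed genes. It lay above the usual gene, since the median ratio of BCV to trend was 0.60. A gene can therefore vary more than the median gene without lying above the trend. Above it lay 699 genes, or 5.80%, in which the highest mouse exceeded the lowest by a median of 3.39 times, and in 56 of these the ratio passed 10. Without any one mouse the number above the trend was 621 to 676, and 423 of the 699 genes were called whichever mouse was left out. At the other end, 487 genes had the lowest BCV that the fit can give, and 3 of them are given here as examples. The myristoyltransferase gene Nmt1 lay between 87.7 and 93.7 CPM in the 11 livers, the complex I subunit gene Ndufs3 between 59.7 and 63.8, and the lysyl-tRNA synthetase gene Kars between 49.4 and 54.4.

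**Figure D1:**
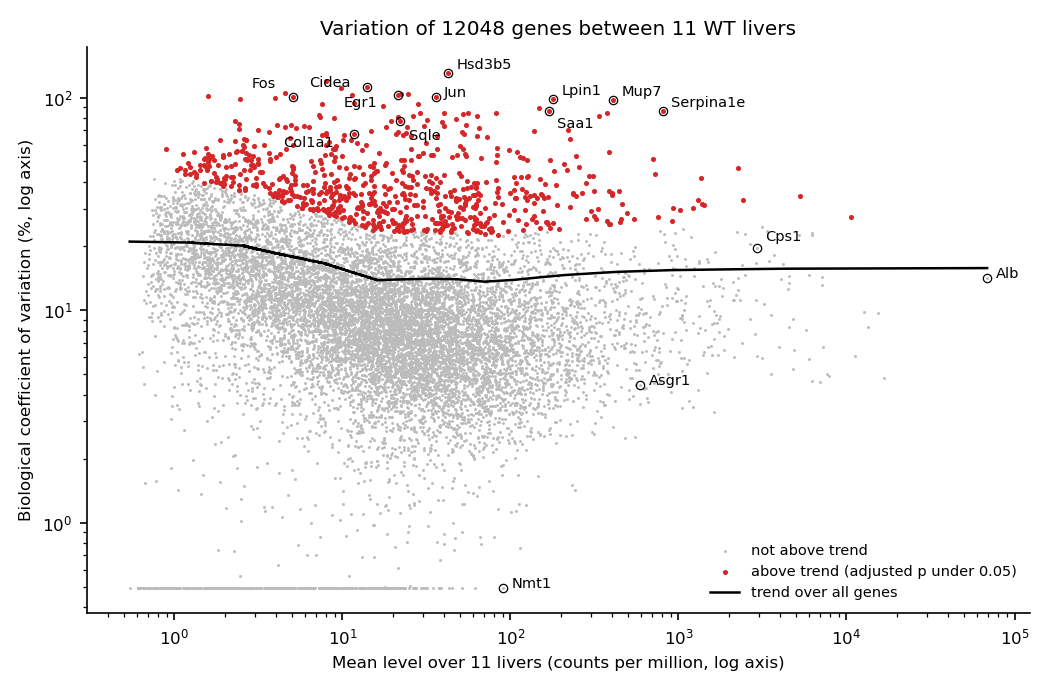
Biological coefficient of variation of each of the 12048 genes (vertical axis, %, log scale) against its mean level over the 11 livers (horizontal axis, CPM, log scale). Red points are the 699 genes above the trend, the black line is the trend, circles mark named genes, and Hsd3b5 stands highest at a BCV of 131%.

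Variation was spread unevenly over processes. The process lists with over 50% of their tested members above the trend were immediate early genes (17 of 18 tested), sex-biased genes (14 of 17 higher in males and 6 of 7 higher in females), genes of fasting and glucocorticoid response (18 of 22), major urinary proteins (12 of 15), cholesterol synthesis (19 of 25), the circadian clock (14 of 21) and the acute phase response (15 of 26). The urea cycle (0 of 8, median BCV 11.2%), mitochondrially encoded transcripts (0 of 7, 6.32%) and hepatocyte markers (0 of 9, 14.1%) had no member above it. Beyond counting noise, every tested member of these last 3 lists varied. The interferon response had 1 of 37 above the trend (Cxcl10, from 2.49 to 12.8 CPM) and the cell cycle 2 of 22, shares of 2.70% and 9.09% beside the 5.80% of all genes.

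**Figure D2:**
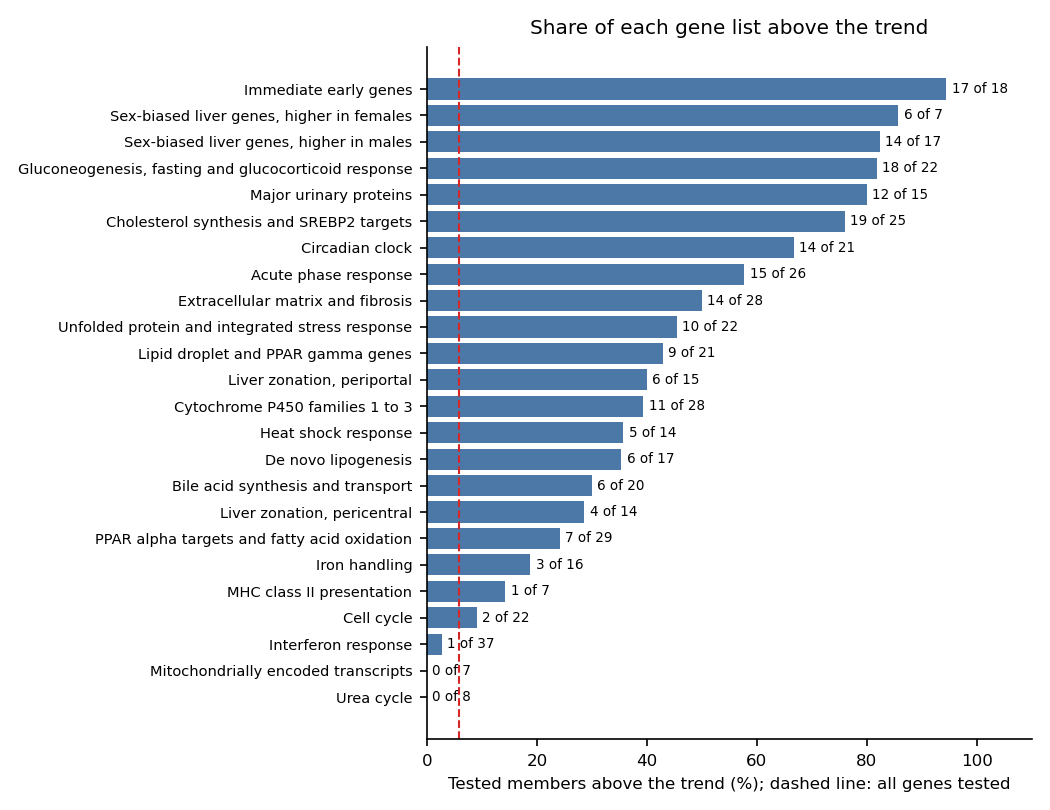
Percentage of the tested members of each of 24 process lists that lay above the trend (bars, from 0), with the number above the trend and the number tested beside each bar. The dashed line is the 5.80% of all genes tested, and the bars run from 0 for the urea cycle to 94.4% for immediate early genes.

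The gene that varied most for its level was Hsd3b5 (ENSMUSG00000038092), a hydroxysteroid dehydrogenase made in male liver under growth hormone. It measured 131 CPM in mouse 536, 130.1 in 537 and 122 in 623, but 2.5 in 528, 2.93 in 516, 3.49 in 586 and 4.11 in 531, with 9.22 to 25.8 in the other four. The first 3 livers stood apart, with nothing between 25.8 and 122 CPM. Its BCV of 131% was 9.35 times the trend (edgeR goodness of fit, adjusted p = 5.95e-203). Slco1a1, an uptake transporter for organic anions, followed a like order, from 59.1 CPM in mouse 528 through a median of 166 to 526 in 536. Elovl3, which elongates fatty acids, ranged from 118 CPM in mouse 516 to 495 in 623 around a median of 259, and the bile acid hydroxylase gene Cyp7b1 from 54 in 516 to 226 in 623. Serpina1e, a secreted protease inhibitor and one of the more abundant of these transcripts, was at 129.7 CPM in 516 and 2125 in 536.

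The major urinary proteins (Mup), pheromone carriers secreted by male liver and encoded by a cluster of close copies on chromosome 4, varied with these genes. Mup7 measured 30.1 CPM in mouse 528, a median of 222, and 968, 1083 and 899.8 in mice 536, 537 and 623. Mup17 went from 68.4 in 586 to 958 in 623, and Mup9 from 2.27 in 528 to 66.9 in 623. The mean Spearman rho between the 15 tested members was 0.76 (0.00028 over pairs from a random sample of tested genes). The median BCV was 73.6%. The family was not uniform. The most abundant member, Mup3, lay between 3667 and 7155 CPM and was not above the trend (adjusted p = 0.269 by edgeR goodness of fit), and neither were Mup10 (737 to 1465) and Mup2 (2.46 to 8.92). Mup20, which encodes the pheromone darcin, was above the trend (806 to 1921 CPM), but with a narrower range, and was placed with another set of genes. Reads that match several of these near-identical genes may have been split or lost in the authors' counting, so the level of any single Mup gene is uncertain.

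Some Mup promoters share stretches of sequence too, and 4 are shown for that reason. RefSeq windows of 250 bases before to 50 after the start were matched for 497 of the 699 genes above the trend. The 4 Mup genes compared here share a run of 16 bases with a TATA-type core, printed in capitals, and Mup9, Mup17 and Mup18 share 99 bases in a row further upstream. The 80 bases shown hold that run, which lies at -39 to -24 from the start in Mup9 and at -16 to -1 in Mup21, and come from the minus strand of GRCm38.p6, at chr4:60421953-60422032 for Mup9, chr4:61595833-61595912 for Mup17, chr4:61674095-61674174 for Mup18 and chr4:62150842-62150921 for Mup21.
Mup9: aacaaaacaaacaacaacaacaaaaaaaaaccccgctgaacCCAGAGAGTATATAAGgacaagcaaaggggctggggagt
Mup17: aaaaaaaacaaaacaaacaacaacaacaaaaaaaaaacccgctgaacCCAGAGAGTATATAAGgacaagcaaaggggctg
Mup18: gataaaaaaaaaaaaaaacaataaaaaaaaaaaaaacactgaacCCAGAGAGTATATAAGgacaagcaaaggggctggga
Mup21: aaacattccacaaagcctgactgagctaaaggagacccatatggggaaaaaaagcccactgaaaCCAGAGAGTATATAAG
Mup9, Mup17 and Mup18 were all highest in mouse 623 and fell into the Hsd3b5 group described below. Mup21, which lacks the 99-base stretch, was highest in mouse 567 (105 CPM), lowest in 612 (42.6), and did not join them. The promoters of the other Mup genes in that group were not compared, and any part of the shared stretches in the grouping was not tested.

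The female-biased gene Cyp2b9 ran the opposite way. Cyp2b9, a cytochrome P450 that male growth hormone pulses repress, measured 429.9 CPM in mouse 516, a median of 135, and 21.7, 24.8 and 29.3 CPM in mice 537, 623 and 536. These 3 lowest livers were the 3 highest for Hsd3b5. The 57 gene pairs tested here and below were chosen with earlier results of these data known. Their p-values are therefore not independent support. Across the 11 mice Cyp2b9 and Elovl3 were inversely related (r = -0.92, p = 6e-05, adjusted p = 0.000263, rho = -0.92, p = 0.00023, adjusted p = 0.00119, by permutation test over 57 gene pairs), and r was -0.86 without the 2 mice farthest from the median of Cyp2b9. Elovl3 and Cyp7b1 moved together (r = 0.95, p = 2e-05, adjusted p = 0.000163, rho = 0.95, p = 5e-05, adjusted p = 0.000356, permutation test), with r = 0.89 without the 2 mice farthest out. The female-biased list did not move as one, with a mean rho of 0.17 and 61.9% of its pairs positive. Of its 7 tested members 6 were above the trend, and among these Acot3 measured 8.59 CPM in 624 to 65.4 in 516, Atp6v0d2 1.87 in 624 to 7.73 in 567, Abcd2 24.8 in 624 to 57.2 in 516, Cyp17a1 22.8 in 537 to 50.4 in 623, and Cyp2b10 20.7 to 47.8, the latter in 624. Without mouse 537 or 586, 5 of the 7 were above the trend and Cyp17a1 was not. The other 13 of the 20 genes were too low to be tested. Cyp2b13 and Cyp2a4 were among these, at 0.249 to 7.99 and 0.21 to 5.76 CPM, and both were lowest in mice 536, 537, 567 and 623.

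Cish, Socs2 and Onecut1 were high in other combinations of mice. In the grouping described below, Cish and Onecut1 fell in one group of genes and Socs2 in another. Cish, a feedback inhibitor of STAT5 signalling, measured 52.6 CPM in mouse 516, 47.8 in 536 and 26.3 in 567, a median of 9.94, and 2.72 in 616. Socs2, another such inhibitor, was 28.2 CPM in 536 and 19.4 in 516 but at most 7.44 in the other nine. Onecut1, a hepatocyte transcription factor, was between 34 and 43.3 CPM in mice 516, 536, 537 and 567. It was between 3.7 and 15.3 in the rest. Mouse 516 thus had the highest Cish and nearly the lowest Hsd3b5, while mouse 536 was high for both. BCV was 91.3%, 93% and 77.8% for the 3 genes, with ratios to the trend of 6.59, 5.56 and 5.60.

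To describe which genes moved together, the 699 genes above the trend were grouped by average linkage on the rank correlation of their levels over the 11 mice. This gave 25 groups of 5 or more genes that held 612 of them, and since the groups were drawn from these values they carry no test. Membership depended on how the groups were drawn, and at a tree height of 0.3 in place of 0.4 the largest group kept 83 of its 160 genes together. A group's level in a mouse is given below as the mean log2 difference of its genes from their own means over the 11 livers. The Hsd3b5 group had 51 genes, 10 of them Mup and 9 male-biased, with a mean rho of 0.77 between members. Its level was 0.93 in mouse 537, 0.89 in 623 and 0.85 in 536, and -0.95 in 516 and -0.88 in 528. Egfr, the epidermal growth factor receptor gene (78.3 CPM in 586 to 555 in 623), and Pck1 (1177 in 516 to 4089 in 536), which commits carbon to glucose synthesis, belonged to it.

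**Figure D3:**
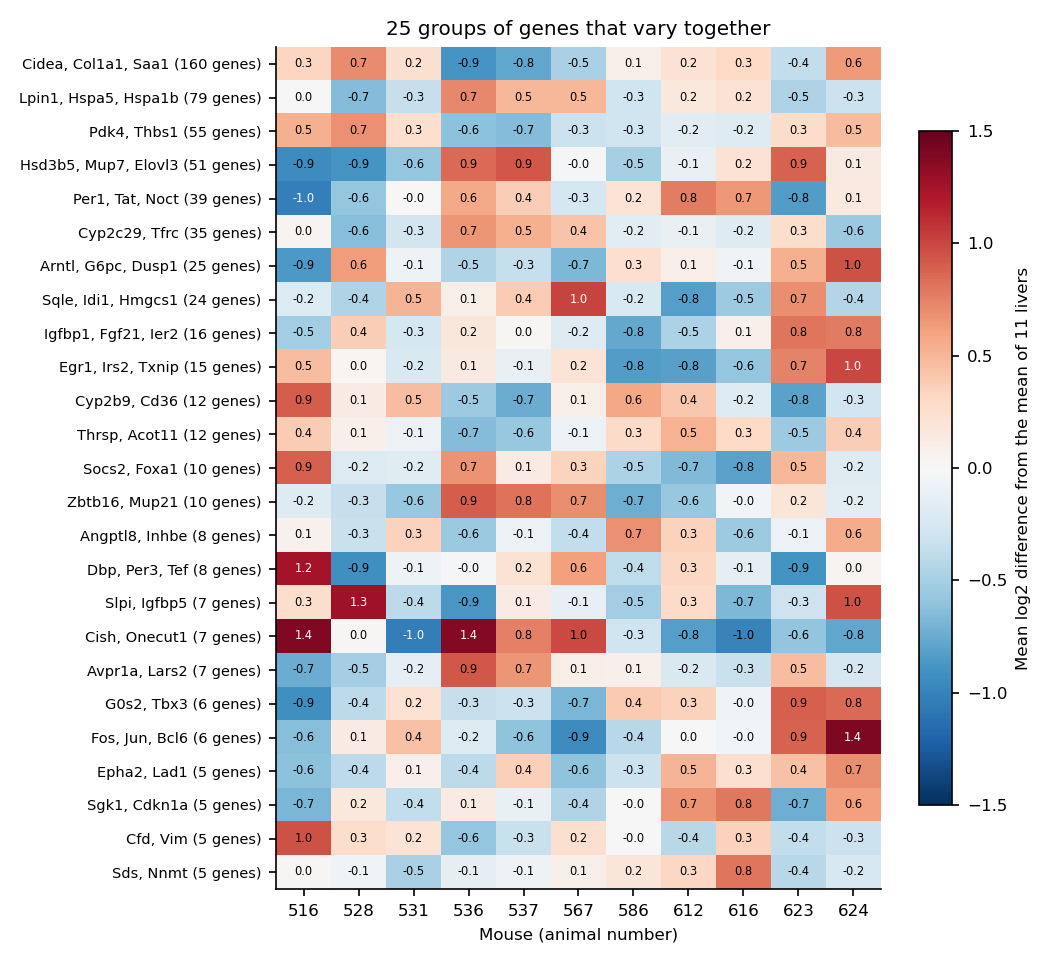
Mean log2 difference from the mean of the 11 livers (colour and printed value) for the 25 groups of genes above the trend (rows, with 2 or 3 members and the number of genes) in each mouse (columns). Mice 536 and 537 are low in the largest group and high in the next, and no 2 mice share the same column.

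The largest group, of 160 genes, joined lipid storage, matrix and acute phase genes. It was high in mice 528 (0.71) and 624 (0.63) and low in 536 (-0.89), 537 (-0.78) and 567 (-0.48). Cidea (ENSMUSG00000024526), which enlarges lipid droplets, measured 0.787 CPM in mouse 536, 1.58 in 567, 2.2 in 537, a median of 6.05, and 64.6 in 624, an 82.1-fold range and a BCV of 112% (7.84 times the trend, edgeR goodness of fit, adjusted p = 3.4e-115). Its relative Cidec ran from 9.6 CPM in 536 through 38.1 to 110.4 in 624. The levels of both genes placed the mice in nearly the same order (r = 0.96, p = 3e-05, adjusted p = 0.00019, rho = 0.98, p = 2e-05, adjusted p = 0.000228, permutation test), and r was 0.94 without the 2 mice farthest from the median of Cidea. The third family member, Cideb, stayed between 292 and 324 CPM. Among other lipid storage genes, Pparg, the regulator of fat storage genes, Cd36, a fatty acid transporter, Mogat1 and Plin4 were above the trend, while Plin2 (724 to 1285), Dgat1, Dgat2 and Pnpla2 were not. In all, 9 of 21 tested members of this list were above the trend, and 7 were without mouse 536. Cd36, Mogat1 and Plin4 were called whichever mouse was left out, but there were 2 mice without either of which Pparg was not. Cidea is also an adipocyte gene, and 2 of the 3 adipocyte markers tested were above the trend, Cidea and Cfd (1.36 to 8.93 CPM, ratio 2.82), both whichever mouse was left out. Of the other adipocyte markers, Adipoq, Plin1 and Retn had at most 2, 1 and 3 counts in any library and Lep had 0 in all. The 8 markers, Cidea included, summed to 6.4 CPM in 536 and to 70 in 624, and the part of adipocytes in the result was not tested.

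Collagen genes were the widest varying of the matrix genes, of which 14 of 28 lay above the trend. Col1a1 measured 28.7 CPM in mouse 516, 19.9 in 624 and 18.3 in 528, a median of 7.0, and 3.52 in 536. Col3a1 was 79.9 CPM in 516 and 11.2 in 536 around a median of 27.7. Col1a1 and Col3a1 kept step (r = 0.98, p = 1e-05, adjusted p = 0.000142, rho = 0.96, p = 2e-05, adjusted p = 0.000228, permutation test, where 1e-05 is the smallest p that 100000 resamples can give), with r = 0.97 without the 2 mice farthest out. Cidea and Col1a1 were related over all 11 mice (r = 0.81, p = 0.0026, adjusted p = 0.00674, rho = 0.82, p = 0.00333, adjusted p = 0.0105, permutation test), but without the 2 mice farthest from the median of Cidea r was 0.73 and the relation no longer passed (adjusted p = 0.0709). Without mouse 516 or 536 the matrix list had 10 genes above the trend. Of 8 stellate cell markers only Pdgfrb lay above the trend (5.68 to 19.5 CPM). The summed level of the 8 was 343 CPM in mouse 624, 308 in 528, 291 in 516 and 222 in 536, a narrower range than that of the collagens, and its part in their variation was not tested. In bulk liver, fewer cells of a type and less RNA per cell cannot be told apart.

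Acute phase transcripts, secreted by hepatocytes in inflammation, were led by mouse 616, and 15 of 26 lay above the trend. Saa1, serum amyloid A, measured 792 CPM there, a median of 113, and at most 169 in the other ten, with 38.1 in 537. Saa2 showed the same (242 CPM in 616, at most 86 elsewhere), although reads shared between these close copies make the split between them uncertain. Lcn2, an iron-siderophore binding protein, was 186 CPM in 616 and 110.2 in 528 against 8.76 in 537. Saa1 and Lcn2 were related (r = 0.93, p = 1e-05, adjusted p = 0.000142, rho = 0.93, p = 0.00019, adjusted p = 0.00108, permutation test), and r stayed at 0.94 without the 2 mice farthest out. The metal-binding metallothionein genes Mt1 and Mt2 peaked in the same liver, at 210.1 and 165 CPM against medians of 42.4 and 26.6. Without mouse 616, the ratio of BCV to trend for Saa1 was 3.53 in place of 6.01, Saa4 was no longer above the trend (ratio 1.18 in place of 1.90), and 11 in place of 15 of the 26 acute phase genes were. Abundant acute phase proteins such as Hp (3543 to 5819 CPM) and Fga (3178 to 5868) were also highest in 616 but not above the trend. Summed macrophage markers were highest in this liver too, at 869 CPM against a median of 730, and their part in the result was not tested. Of 19 of these markers, Marco, Ccr2 and Itgax (adjusted p = 0.0497, edgeR goodness of fit) lay above the trend. Marco and Ccr2 did so whichever mouse was left out, but Itgax did not without 516, 528, 537, 567, 586, 616 or 623, while Clec4f (106 to 130.4 CPM), which marks resident Kupffer cells, did not.

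**Figure D4:**
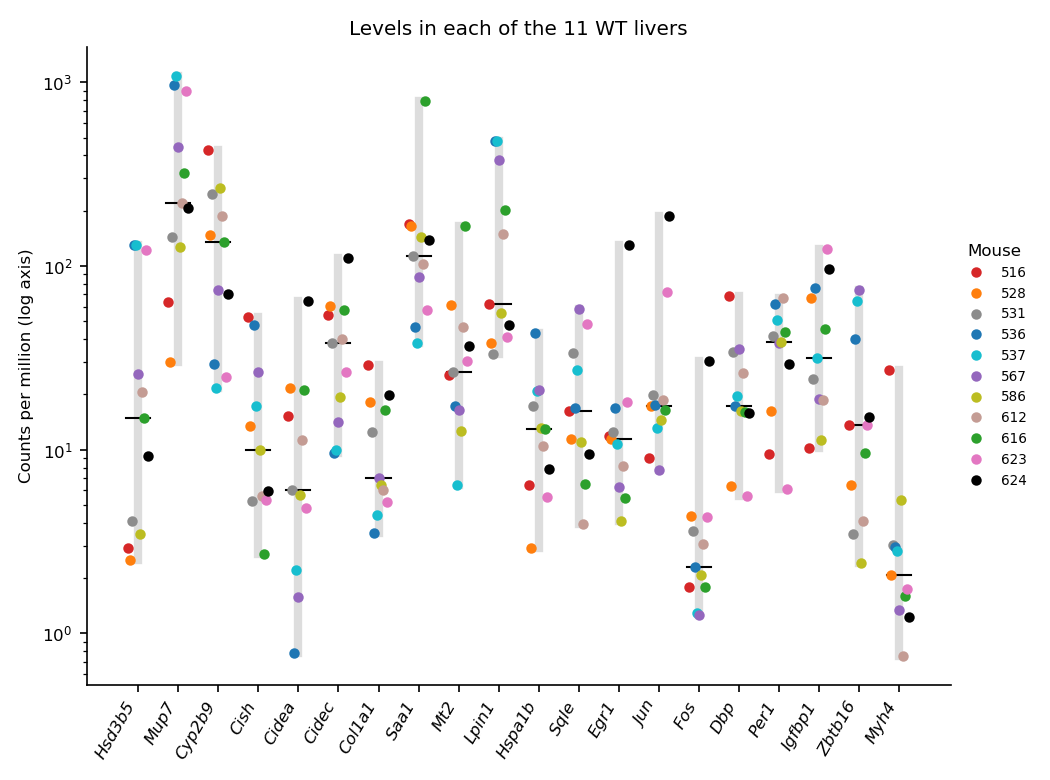
Level of 20 genes in each of the 11 livers (CPM, log scale), 1 coloured point per mouse, with the median as a black bar and the range as a grey bar. Mouse 624 stands above the rest for Egr1, Jun and Fos, mouse 616 for Saa1 and Mt2 and mouse 516 for Myh4. Hsd3b5, Lpin1 and Zbtb16 each split the mice into a high and a low set, and the high set of Hsd3b5 differs from that of Lpin1 and Zbtb16.

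A set of 35 genes ran against the lipid storage and matrix group, with a rank correlation of -0.89 between the mean profiles of these groups. It was highest in mouse 536 (0.67) and lowest in 528 (-0.64) and 624 (-0.56), and held the P450 genes Cyp2c29 (660.0 CPM in 528 to 1749 in 537), Cyp2c54 and Cyp1a2, and Igfbp2 (86.7 to 473). Both mitochondrial ribosomal RNAs were in it, mt-Rnr2 at 507 to 1202 CPM. Without mouse 536 mt-Rnr2 was no longer above the trend, and there were 3 mice without any 1 of which mt-Rnr1 was not. Of the 13 mitochondrially encoded messenger RNAs 7 were tested, and 0 of these lay above the trend. In these libraries of poly(A) RNA, the contrast of ribosomal and messenger RNA was not tested. Cyp4a14, a fatty acid hydroxylase induced by the fat sensor PPAR alpha, was not itself above the trend, but ran opposite to Cidea (r = -0.91, p = 7e-05, adjusted p = 0.000266, rho = -0.95, p = 3e-05, adjusted p = 0.000285, permutation test), with r = -0.86 without the 2 mice farthest from the median of Cyp4a14. Cyp4a14 was lowest in mouse 624, where Cidea was highest, and highest in 536, where Cidea was lowest. Its relation to the PPAR alpha target Cpt1a did not pass (r = -0.01, p = 0.976, adjusted p = 0.976, rho = 0.12, p = 0.736, adjusted p = 0.763, permutation test), and r was 0.71 without the 2 mice farthest out. Of the 29 PPAR alpha targets tested, 7 were above the trend, and their median BCV was 12.2%, beside 9.20% for all genes.

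**Figure D5:**
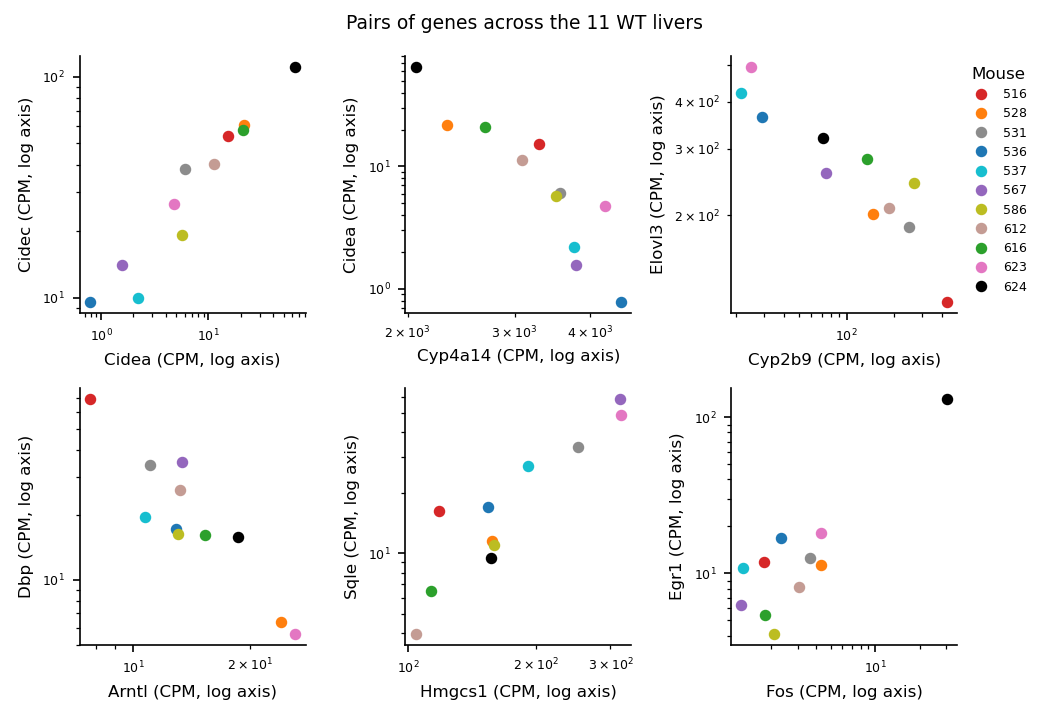
Levels of 6 pairs of genes in the 11 livers (both axes CPM, log scale), 1 point per mouse coloured by animal number. Cidea and Cidec and Hmgcs1 and Sqle lie along rising lines, Cidea falls with Cyp4a14, Elovl3 with Cyp2b9 and Dbp with Arntl, and for Fos and Egr1 mouse 624 stands alone at the upper right.

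Immediate early genes, which are transcribed within minutes of a stimulus, were most raised in one liver. Egr1 (ENSMUSG00000038418) measured 130.2 CPM in mouse 624 and between 4.1 and 18.2 in the other ten. Jun was 188 CPM in 624, 72.1 in 623 and at most 19.9 elsewhere, and Fos 30.4 against at most 4.34. Atf3, Btg2, Dusp1, Zfp36 and Ier2 were also highest in 624, at 49, 142, 204, 351 and 28.7 CPM against medians of 4.89, 17, 43, 85.5 and 9.79. The stress-induced hormone gene Gdf15 (66.9 CPM, next 10.1) shared this peak. Of the 32 genes above the trend whose highest mouse had over 2 times the next, 16 peaked in mouse 624. Without it the ratio of BCV to trend was 3.11 in place of 7.40 for Egr1, 2.15 in place of 5.71 for Fos, 4.41 in place of 7.33 for Atf3, 2.75 in place of 6.01 for Btg2 and 3.04 in place of 6.83 for Gdf15, and all 5 remained above the trend, as did 16 of the 18 tested immediate early genes in place of 17. Fos and Egr1 were related by r = 0.87 (p = 0.00767, adjusted p = 0.0168) but rho = 0.62 (p = 0.0474, adjusted p = 0.0965, permutation test), and r fell to 0.47 without the 2 mice farthest out, so that the relation rests on those mice.

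Not every early gene peaked there. Myc measured 18.4 CPM in mouse 516 and at most 5.19 in the rest, and Klf2 and Klf4, of the same list, were highest in 536 (12.2 and 5.67 CPM) and lowest in 516. The promoters of Dusp1 and Btg2 hold the cyclic AMP element TGACGTCA in the RefSeq window, and are shown because they were the 2 of 17 matched genes of this list that did (2.03% of all 27025 windows, both strands searched). The element is in capitals, and both stretches are read from the minus strand of GRCm38.p6, at chr17:26508561-26508640 and chr1:134079267-134079346.
Dusp1: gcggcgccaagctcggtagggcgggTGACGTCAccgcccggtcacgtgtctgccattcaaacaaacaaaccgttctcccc
Btg2: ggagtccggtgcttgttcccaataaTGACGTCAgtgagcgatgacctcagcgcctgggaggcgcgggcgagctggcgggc
Outside mouse 624, Btg2 was at most 30.4 CPM, in 528, while Dusp1 was also above its median in 612 (74.1 CPM), 623 (62.6), 528 (48.8) and 586 (48).

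The circadian clock is built of positive factors (Arntl, Clock and Npas2) that bind the E-box CACGTG, repressors (Per and Cry), and output factors such as Dbp and Tef that bind the D-box TTATGTAA. Dbp measured 68.9 CPM in mouse 516, a median of 17.2, and 6.38 and 5.63 in mice 528 and 623. Arntl ran the other way, at 7.74 CPM in 516 and 23.9 and 26.1 in 528 and 623. The inverse relation passed over the 11 mice (r = -0.91, p = 0.00019, adjusted p = 0.000637, rho = -0.79, p = 0.00544, adjusted p = 0.0163, permutation test), and r was -0.77 without the 2 mice farthest from the median of Arntl. When 528, 616, 623 or 624 was left out, r stayed between -0.93 and -0.87 (adjusted p from 0.00171 to 0.00826, permutation test), but rho no longer passed, so that the pair met 1 of the 2 criteria. Dbp and Per3 moved together (r = 0.96, p = 2e-05, adjusted p = 0.000163, rho = 0.96, p = 1e-05, adjusted p = 0.00019, permutation test), with r = 0.93 without the 2 mice farthest out.

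Per1 followed another order, from 6.1 CPM in mouse 623 and 9.52 in 516 to 66.8 in 612, and so did Noct, a clock-regulated phosphatase of nicotinamide dinucleotides (7.48 in 516, 107 in 612). Usp2, a clock-driven deubiquitinase, was 2.97 CPM in 528 and 3.07 in 623 against a median of 22.4. Clock itself, Cry1, Cry2, Rora and Hlf were not above the trend. Mice 528 and 623 were thus low for Dbp, Per1, Per2, Per3 and Usp2 together, and mouse 516 high for Dbp, Per2, Per3 and Tef but low for Per1. Of 18 clock genes with a RefSeq window, 5 held an E-box (8.09% of all windows did) and Per3 alone held D-boxes (1.11% of all windows), 2 of them within 80 bases. Per3, Tef and Bhlhe41, which varied together, and Per1, which did not join them, are shown with these elements in capitals, from GRCm38.p6 at chr4:151044816-151044895 (minus strand), chr15:81802521-81802600 (plus), chr6:145865519-145865598 (minus) and chr11:69098758-69098837 (plus).
Per3: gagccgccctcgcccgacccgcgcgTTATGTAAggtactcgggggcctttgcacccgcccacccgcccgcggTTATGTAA
Tef: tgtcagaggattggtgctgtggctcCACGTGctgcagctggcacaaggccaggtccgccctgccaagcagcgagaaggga
Bhlhe41: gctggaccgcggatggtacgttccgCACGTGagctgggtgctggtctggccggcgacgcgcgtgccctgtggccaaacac
Per1: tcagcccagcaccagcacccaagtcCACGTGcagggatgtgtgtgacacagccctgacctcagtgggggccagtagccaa
The 3 genes with an E-box here differed in order: Tef and Bhlhe41 were highest in mouse 516 (213 and 4.8 CPM) and Per1 was next to lowest there.

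Genes that hepatocytes use to respond to fasting and to glucocorticoids varied in 18 of 22 cases, but not as one unit, with a mean rho of 0.17 between members. Lpin1 (ENSMUSG00000020593), a phosphatidic acid phosphatase and nuclear co-activator induced by fasting, measured 482, 478 and 379 CPM in mice 536, 537 and 567, a median of 62.3, and 33.3 in 531. The glucocorticoid-induced factor Zbtb16 was also highest in those 3 livers, at 40.1, 64.4 and 73.9 CPM, and measured 2.42 to 15 in the others. Fkbp5, a co-chaperone of the glucocorticoid receptor, was 153, 123 and 86.2 CPM there, but mouse 516 also reached 102. These 3 mice were picked as the highest for Lpin1. In the grouping described above, Fkbp5 fell in the group of Lpin1 and Zbtb16 in another. How many of all genes were highest in these 3 mice was not counted, so the Zbtb16 values have no background to be set against.

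Other targets put different mice on top. Tsc22d3, a glucocorticoid-induced anti-inflammatory factor, ran from 51.7 CPM in mouse 516 to 262 in 616, and Tat, which breaks down tyrosine, from 439 in 516 to 2003 in 616. Igfbp1, an insulin-repressed binding protein, was 123 CPM in 623 and 96.5 in 624 against 10.2 in 516, and the hormone gene Fgf21 was 21.7 in 624 and 21 in 623 against at most 10.2 elsewhere. G6pc, the last step of glucose output, ranged from 96.9 CPM in 516 to 853 in 624 around 303. The relation of Pck1 to G6pc did not pass (r = 0.29, p = 0.393, adjusted p = 0.475, rho = 0.18, p = 0.596, adjusted p = 0.693, permutation test), and r was -0.06 without the 2 mice farthest out. Irs2, an insulin receptor substrate that insulin represses, was highest in 623 (17.4 CPM) and lowest in 612 (1.69). Mouse 516 was the lowest of the 11 for Pck1, G6pc, Igfbp1, Tat, Tsc22d3 and Noct.

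Chaperones of the endoplasmic reticulum and of the cytosol varied with Lpin1 in a group of 79 genes, high in mice 536 (0.72), 567 (0.50) and 537 (0.49) and low in 528 (-0.65). Hspa5, the main chaperone of the endoplasmic reticulum, measured 802 CPM in mouse 528, a median of 1252, and 1844, 1916 and 2035 in 536, 516 and 567. Herpud1, of the same unfolded protein response, was 1306, 1191 and 1176 CPM in mice 536, 567 and 537 and at most 830.1 in the rest. Creld2 ranged from 37.1 to 159.8 CPM and Sdf2l1 from 11.3 to 43. Hspa5 and Sdf2l1 moved together (r = 0.97, p = 2e-05, adjusted p = 0.000163, rho = 0.94, p = 4e-05, adjusted p = 0.000326, permutation test), with r = 0.96 without the 2 mice farthest out. In this list 10 of 22 genes were above the trend. The transcription factor gene Atf4 (67.9 to 88.1 CPM), Ddit3 and Trib3 of this list were not above the trend, whereas Chac1, which breaks down glutathione, was (0.914 to 6.89 CPM, ratio to the trend 3.63).

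Hspa5, Creld2 and Derl3 of this list are shown with their promoters. Of all lists, it was the one in which a searched element was most frequent against the background. Syvn1, which is not on the list, is shown because its window holds the element too. The element bound in endoplasmic reticulum stress, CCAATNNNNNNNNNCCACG, was in the RefSeq window of 6 of 21 matched members and of 0.137% of all windows. It is in capitals, on the plus strand of GRCm38.p6 throughout, at chr2:34772000-34772079 for Hspa5, chr15:88819495-88819574 for Creld2, chr19:6046496-6046575 for Syvn1, a ubiquitin ligase in the same group, and chr10:75893217-75893296 for Derl3. In Creld2 and Derl3 it reads on the opposite strand, so that the capitals are its complement in reverse.
Hspa5: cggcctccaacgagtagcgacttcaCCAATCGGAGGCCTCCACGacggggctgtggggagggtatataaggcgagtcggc
Creld2: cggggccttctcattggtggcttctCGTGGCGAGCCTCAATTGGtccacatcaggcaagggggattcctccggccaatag
Syvn1: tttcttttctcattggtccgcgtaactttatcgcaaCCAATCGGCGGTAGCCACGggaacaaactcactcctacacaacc
Derl3: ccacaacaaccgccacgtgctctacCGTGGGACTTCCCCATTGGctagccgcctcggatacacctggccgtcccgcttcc
The first 3 belonged to the Lpin1 group. Derl3, which helps to clear misfolded proteins, was placed with Dbp and Per3 instead, at 20.9 CPM in mouse 516 and 2.72 in 531. Windows of Hsp90b1, Pdia6 and Calr held the element too, and none of these was above the trend.

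Heat shock genes of the cytosol were highest in mouse 536. Hspa1b, the inducible Hsp70, measured 43 CPM there, a median of 12.9, and 2.93 in 528, and its partner Bag3 102 CPM in 536 against 30.5 in 528. Hspa1b and Dnajb1 were related (r = 0.94, p = 7e-05, adjusted p = 0.000266, rho = 0.87, p = 0.00094, adjusted p = 0.00357, permutation test), with r = 0.84 without the 2 mice farthest out. Of 14 such genes 5 were above the trend, and without mouse 536 it was 3, since Dnajb1 (ratio 1.57 in place of 2.10) and Chordc1 (1.66 in place of 1.84) dropped below it. Chordc1 was also lost without 528. The constitutive mitochondrial chaperones Hspd1 (316 to 389 CPM) and Hspe1 (46.3 to 64.5) were not above the trend. The heat shock element GAANNTTCNNGAA was in 4 of 11 matched windows of the list, those of Hsph1, Chordc1, Hspd1 and Hspe1, and in 0.662% of all windows.

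Of the lists examined, cholesterol synthesis had the highest mean rank correlation between its members. All 25 genes were tested, 19 were above the trend, every pair of the 25 was positively correlated (mean rho 0.78), and those 19 made up most of a group of 24 genes. The group was high in mice 567 (1.01), 623 (0.69) and 531 (0.51) and low in 612 (-0.82) and 616 (-0.54). Sqle, squalene epoxidase, measured 3.96 CPM in mouse 612, a median of 16.2, and 48.6 and 58.3 in 623 and 567, a BCV of 77.7% (5.57 times the trend). Idi1, isopentenyl diphosphate isomerase, ran from 1.25 to 12.5 CPM and Msmo1, a sterol demethylase, from 33.3 to 204. Hmgcs1 and Sqle moved together (r = 0.92, p = 0.0001, adjusted p = 0.000356, rho = 0.85, p = 0.00189, adjusted p = 0.00673, permutation test), and r was 0.83 without the 2 mice farthest out. The regulator Srebf2 itself (41.9 to 79.5 CPM), Sc5d, Ebp and Acat2 were not above the trend.

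Hmgcs1, an early enzyme of the pathway, ranged from 104 CPM in mouse 612 to 318 in 623, and the genes nearest to it in order were Nsdhl, Dhcr7, Mvk, Msmo1 and Pmvk (Spearman rho 0.94 to 0.90 over 11 mice), all of the same pathway. Its promoter is shown as the 1 of 17 matched members of the list with the sterol element TCACCCCAC (0.614% of all windows), in capitals, on the plus strand at chr13:119690189-119690268 of GRCm38.p6.
Hmgcs1: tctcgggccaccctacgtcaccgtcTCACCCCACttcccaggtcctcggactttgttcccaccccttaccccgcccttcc
Cyp7a1, the rate-limiting enzyme that turns cholesterol into bile acid, was grouped with these genes and measured 256 CPM in 536, 211 in 567 and 202 in 531, but at most 136 elsewhere. Its relation to Hmgcs1 did not pass (r = 0.60, p = 0.0537, adjusted p = 0.102, rho = 0.41, p = 0.214, adjusted p = 0.33, r = 0.70 without the 2 mice farthest out, permutation test). Of 17 tested genes of fatty acid synthesis, 6 were above the trend. Srebf1, Fasn and Mlxipl were not above the trend, the relation of Hmgcs1 to Fasn did not pass (r = 0.45, p = 0.166, adjusted p = 0.263, rho = 0.42, p = 0.202, adjusted p = 0.32, r = 0.52 without the 2 mice farthest out, permutation test), and Scd1, the fatty acid desaturase, varied with the Cidea group (2329 CPM in 536 to 7084 in 531).

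Xenobiotic and bile acid genes spread over several patterns. Of 28 P450 genes of families 1 to 3, 11 were above the trend (39.3%, beside 5.80% of all genes), with a median BCV of 20% over the list. Cyp3a11, the main drug-oxidising P450 of mouse liver, ranged from 616 to 1710.5 CPM and Cyp2a5 from 212 to 713. Among bile acid genes 6 of 20 (30%) were above the trend, of which Slco1a1, Cyp7b1 and Nr0b2, a repressor of Cyp7a1 (12.2 to 41.4 CPM), belonged to the Hsd3b5 group. Genes of the periportal zone, on the side where blood enters the lobule, were above the trend in 6 of 15 cases (40%) and pericentral genes in 4 of 14 (28.6%). Tbx3, a pericentral transcription factor, varied most for its level among the latter (18.7 to 70.7 CPM).

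Iron handling had 3 of 16 genes above the trend, or 18.8%, beside 5.80% of all genes. Hamp, which encodes the iron hormone hepcidin, lay between 177 and 649.9 CPM around a median of 413, and its copy Hamp2 between 2.49 and 18. The transferrin receptor gene Tfrc ran from 12.5 to 42.6 CPM. Reads shared by Hamp and Hamp2 make the split between them uncertain. Of 7 genes of class II antigen presentation, H2-Ab1 alone was above the trend (16.1 to 34.8 CPM), a share of 14.3%. H2-Ab1 was not above it without mouse 516 (ratio 1.61 in place of 1.69), 528, 536, 567 or 586, although all pairs of the list were positively correlated.

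Smaller groups separated the mice in other ways. A group of 39 genes with Per1, Tat, Tsc22d3 and Noct was high in mouse 612 (0.77) and 616 (0.65) and low in 516 (-1.02) and 623 (-0.84). One of 25 genes with Arntl, G6pc and Dusp1 was high in 624 (0.96) and low in 516 (-0.87). Igfbp1 and Fgf21 led 16 genes that were high in 623 (0.80) and 624 (0.77) and low in 586 (-0.76). The 8 genes with Dbp and Per3 were high in 516 (1.25) and low in 528 (-0.93), and the 7 with Cish and Onecut1 high in 516 (1.39) and 536 (1.38). Mouse 516 thus stood at an end of the range in each of these except the Igfbp1 group, where its level was -0.52.

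Some markers of other cell types lay above the trend, 3 of 19 (15.8%) for macrophages, 1 of 8 (12.5%) for stellate cells and 2 of 3 for adipocytes, beside 5.80% of all genes. Of these, Marco, Ccr2, Pdgfrb, Cfd and Cidea were called whichever mouse was left out. Skeletal muscle transcripts were found in mouse 516, where Myh4, a fast myosin, measured 27.2 CPM against at most 5.29 in the others and Acta1 9.44 against at most 1.56. The 10 muscle markers together summed to 65.9 CPM in 516 and to 2.72 to 11.9 in the rest. All 3 muscle markers tested were above the trend, but without mouse 516 only Myh4 was (ratio 2.65 in place of 5.76), and Acta1 was not (2.0 in place of 4.95). The part of this signal in the other genes highest in 516 was not tested. Immunoglobulin transcripts were highest in mice 612 and 528, with Ighm at 13.5 and 10.6 CPM against a median of 5.92, and Ighm lay above the trend only with mouse 612 included (ratio 1.55 without it, 2.18 with it). Red cell markers, highest in 586 (339 CPM in sum, median 258), varied together with a mean rho of 0.77, but none of 5 was above the trend (by edgeR goodness of fit, adjusted p from 0.181 for Hba-a1 upward). Endothelial markers came to 441 to 545 CPM in sum, with 1 of 11, Lyve1, above the trend (23.1 to 48.3 CPM, ratio 1.67). Without mouse 516, 531, 586, 612, 616 or 623, or with no filter on low counts or gene length removed, 0 of the endothelial markers were. Of 14 pancreatic markers 8 were at 0 in every library.

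Each mouse had its own combination. Of the 699 genes above the trend, mouse 536 was highest for 114, 528 and 624 for 106 each, 516 for 89, 623 for 72, 567 for 52, 616 for 45, 537 for 36, 586 for 33, 612 for 31 and 531 for 15. Mouse 536 was also lowest for the most genes, 136, followed by 516 with 96, 537 with 91, 528 with 87, 623 with 61, 586 with 59, 612 with 41, 624 with 36, 567 with 34, 531 with 32 and 616 with 26. Over all 12048 genes the first principal component held 34.3% of the variance and set 536, 537 and 567 against 528, 624 and 516. The second held 13.5%, with mice 516 and 567 at one end, and the third 12.4%, with 623 at one end. Cish weighed most at the 516 end of the second component, and the muscle markers Myh4 and Acta1 were also among its leading genes. The part of muscle transcripts in this component was not tested. Scores on the first and second components were set against total count, the dependence of level on gene length and the summed red cell, macrophage and hepatocyte markers. None of these 10 relations passed a permutation test after adjustment. The nearest was the second component with hepatocyte markers (r = 0.66, p = 0.0215, adjusted p = 0.215, rho = 0.56, p = 0.0759, adjusted p = 0.476, r = 0.45 without the 2 mice farthest out), the single one with an unadjusted p under 0.05.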

How the data were processed

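Poly(A) RNA of each liver was sequenced by the authors as strand-specific single-end reads of 85 bases. They deposited read counts per gene and sample, which were used as deposited, and a table of RPKM values. The RPKM values served only to derive gene lengths. The aligner, counter and genome build are not given in the sources used here, nor are the sequencing pool and the time at which each mouse was killed. All 11 libraries are separate animals, and the count table held 0 columns that match no sample. Of 38202 genes with an identifier, 12048 passed filterByExpr in edgeR 4.0.16 (R 4.3.3) and were scaled by TMM.

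Both calls were edgeR goodness of fit tests with Benjamini-Hochberg adjustment over all 12048 genes at 0.05, first against Poisson counting and then against the trended dispersion. The BCV is the square root of each gene's own dispersion, without shrinkage. Levels are CPM, and for correlations log2 CPM with a prior count of 2. Genes above the trend were grouped by average linkage on 1 minus Spearman rho, cut at 0.4. Permutation tests were two-sided with 100000 resamples, adjusted over 57 gene pairs and over 10 relations of principal components.

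Alternatives were DESeq2 1.42.0 size factors and dispersion outliers, library size alone, scran 1.30.0, other filters, other prior counts, removal of gene length, and each mouse left out. The tests were checked on simulated data. Genes are named by rule, among those with a mean of at least 1 CPM, as the 20 above the trend with the largest ratio of BCV to trend, the 10 with the largest BCV, up to 4 of each list by that ratio, the 10 of lowest BCV with a mean count of at least 100, up to 6 that lead each group, the 5 nearest in rank to each of 5 chosen genes, and the genes of the pairs. Other list members are named to account for them and were chosen after their values were seen. The mice, gene lists and pairs were chosen with earlier results of these data known. Some named results are not reported here.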

Additional observations from a re-analysis of the deposited data

How the results depend on the processing

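The number of genes beyond counting noise was 9405 to 9703 when each mouse was left out, and 9711 to 11170 under the other settings. The number above the trend was 621 to 676 without each mouse, 872 with no filter on low counts and 808 against a common dispersion. DESeq2 marked 231 dispersion outliers, all among the 699 genes, and scran marked 1545 genes, 691 of them shared. The median BCV was 14.9% with no filter, and 8.82 to 9.39% without each mouse. Of the 57 pairs, 24 passed by both r and rho, 18 to 25 without each mouse and 20 without the 2 mice farthest out. The 25 groups became 33 at a tree height of 0.3, where the groups of 160 and 79 genes kept 83 and 40 together and 3 groups were lost, and 25 by Pearson r, where 26 of the 35 genes grouped with Cyp2c29 joined 51 of the 79 grouped with Lpin1. No result reversed. The causes of these shifts were not tested. No paired analysis was possible because a single group of mice was used. With 11 animals from 1 group, the values describe these mice, and weakly expressed genes, among them 13 of 20 female-biased genes, were not tested.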

Other observations

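Among genes too uneven to pass the filter on low counts, 11 had at most 2 counts in at least 1 liver and 100 or more in another. Gm26883 had at most 2 counts in 7 of the 11 mice and 171 in the highest, Gemin4 at most 2 in 5 mice and 194 in the highest, and Gm20547 at most 2 in 4 mice and 277 in the highest. Pagr1b had at most 2 counts in 4 mice and 116 in the highest, while its near copy Pagr1a had 245 to 438 in every mouse, and reads shared between such copies make both uncertain. Gpnmb, a marker of lipid-laden macrophages, had 2 to 117 counts, and Slc15a2, a peptide transporter, 2 to 141. These genes were chosen by their values and were not tested.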
